A study of Mus musculus with 12 samples.

Results

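Macrophages owe their identity to a small set of transcription factors, and 9 of them were followed here across conditioned media and a kinase inhibitor in bone marrow derived macrophages (BMDMs). The factors were Spi1, Cebpa, Cebpb, Cebpd, Maf, Mitf, Pparg, Egr2 and Klf4. They were taken by gene symbol from a table of 54232 genes, in which each symbol matched 1 Ensembl gene. All 9 passed the count filter (at least 10 reads in at least 2 libraries), as did 16281 genes in all.

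BMDMs were grown from the marrow of wild-type C57BL/6 mice aged 6 to 8 weeks, with macrophage colony-stimulating factor at 50 ng/ml. On day 5 of culture, medium conditioned by tumor cells (TCM) was added or left out for 24 h, and R788 was added at 500 nM or left out. R788 (fostamatinib) is an inhibitor of the spleen tyrosine kinase Syk. TCM came from NB9464, a mouse neuroblastoma line with MYCN amplification, or from NBT3L, a mouse neuroblastoma line without it.

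The 6 groups held 2 libraries each and were NS (no TCM, no R788), R788 alone, NB9464 TCM with and without R788, and NBT3L TCM with and without R788. The study's methods describe NB9464 TCM as medium without serum collected after 48 h. The preparation of NBT3L TCM, the vehicle of R788 and the medium of the NS cells are not given in the sources used here, so TCM cannot be told apart from a change of base medium or serum. Nothing stated whether the libraries of a group came from separate mice or cultures, and p-values then measure only the spread between these libraries, which may be technical.

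Libraries held between 44977847 and 56449685 reads in genes, and replicate pairs differed by more than counting error in every group. R788 library 8 stood apart, with 16149 genes detected against 17275 to 18343 in the others. The change of each factor between R788 alone and NS is given with and without library 8. Counts of factors called and values of gene lists that rest on R788 alone include library 8. All 10 macrophage markers were detected in every group, and their summed level was 1770415 to 2781319 normalized reads per library. The highest value of a single macrophage marker in any library was 2070051, so the sum does not describe the 10 alike. The 10 neuroblastoma markers summed to 78.5 to 151 normalized reads in the libraries with TCM and to 3.64 to 41.5 in those without. Of the 10, 9 were at 0 in NS and 8 in R788 alone. In NB9464 TCM 6 were at 0, and in NBT3L TCM 3, and with R788 added 6 and 4. Th, the rate-limiting enzyme of catecholamine synthesis, and Chga, a granule protein, were at 0 in every group, with and without TCM. The part of these markers in the results below was not tested.

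PU.1, the product of Spi1, opens the enhancers of the myeloid lineage and acts together with the C/EBP family, whose members bind the same DNA sequence as dimers. C/EBPα drives myeloid progenitors towards granulocytes and monocytes, whereas C/EBPβ and C/EBPδ are induced in mature macrophages by inflammatory signals and act on acute phase and cytokine genes. c-Maf, Mitf, Pparγ, Egr2 and Klf4 shape the mature cell: efferocytosis and IL-10, lysosomes and osteoclast genes, lipid handling, and the programmes of resting and alternatively activated macrophages.

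RefSeq promoter windows (GRCm38.p6, the assembly of mm10), cut to the 250 bases before the transcription start, were at hand for 6 of the 9 genes, and Spi1, Cebpd and Maf had no entry. The windows shown are those of Cebpa and Cebpb, and of Klf4 and Pparg. With TCM Cebpb rose and Cebpa was lower, although the fall of Cebpa was called in NBT3L TCM only. Klf4 and Pparg fell together with TCM and moved in opposite directions with R788 alone. Capitals mark matches to the motifs named after the sequences. Cebpa is at chr7:35119043-35119292 on the plus strand, Cebpb at chr2:167688665-167688914 on the plus strand, Klf4 at chr4:55532476-55532725 on the minus strand, and Pparg, of which a window at an internal start is shown, at chr6:115421816-115422065 on the plus strand.
Cebpa: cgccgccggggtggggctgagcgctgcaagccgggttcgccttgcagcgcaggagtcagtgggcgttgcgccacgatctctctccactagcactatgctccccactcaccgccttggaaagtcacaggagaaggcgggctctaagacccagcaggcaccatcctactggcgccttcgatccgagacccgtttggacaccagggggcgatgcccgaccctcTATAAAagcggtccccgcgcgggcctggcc
Cebpb: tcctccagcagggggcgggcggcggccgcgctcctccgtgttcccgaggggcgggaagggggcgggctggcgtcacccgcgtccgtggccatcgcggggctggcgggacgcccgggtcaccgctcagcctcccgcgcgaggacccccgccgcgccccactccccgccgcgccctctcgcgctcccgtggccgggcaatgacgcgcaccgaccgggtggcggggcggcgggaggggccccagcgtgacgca
Klf4: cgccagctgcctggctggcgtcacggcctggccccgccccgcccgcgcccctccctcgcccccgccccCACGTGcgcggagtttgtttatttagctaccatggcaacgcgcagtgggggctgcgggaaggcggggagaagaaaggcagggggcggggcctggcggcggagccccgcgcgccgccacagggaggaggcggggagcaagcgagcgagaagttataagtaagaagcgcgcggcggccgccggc
Pparg: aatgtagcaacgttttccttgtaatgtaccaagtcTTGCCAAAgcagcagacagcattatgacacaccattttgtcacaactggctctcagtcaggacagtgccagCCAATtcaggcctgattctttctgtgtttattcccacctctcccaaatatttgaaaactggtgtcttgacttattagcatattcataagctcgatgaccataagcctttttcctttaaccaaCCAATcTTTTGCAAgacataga

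The motifs were searched on both strands in all 32851 windows of that length. Cebpa carried TATAAA, found in 12.4% of all windows, and no other match. Cebpb carried no match, and G and C made up 81.6% of its window against a median of 52.4% over all windows. Klf4 carried CACGTG, the letters of the E-box bound by MiT and Myc family factors, which 6.02% of windows held. The Pparg window carried the C/EBP motif TTGCNNAA at 2 places, against 9.56% of windows with any, and CCAAT, which 33.8% held. RefSeq gave 3 windows for Pparg, and the motif TTGCNNAA was in this one only: that at chr6:115360894-115361143 carried no match, and that at chr6:115362099-115362348 carried CCAAT and TATAAA. The other letters searched were GAGGAAGT for PU.1 (2.44% of windows), GCGTGGGNG for EGR (1.65%), CCACACCC for KLF (3.20%), TGACGTCA for CRE (1.55%), TTCNNNGAA for STAT (7.02%), and TGANTCA for AP-1 (6.75%), together with the longer NF-κB (0.980%), MAF (0.0396%) and PPAR/RXR (0.0335%) motifs. No matches overlapped in the windows shown, and a match or its absence describes letters in these windows only.

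Per kilobase of gene length, the scale on which genes can be compared, Spi1 and Cebpb were the most abundant of the 9 in every group. In NS, Spi1 stood at 9351 ± 443 normalized reads per kilobase (SD, n = 2) and Cebpb at 6617 ± 202. Maf followed at 2499 ± 169, Cebpa at 1447 ± 48.2 and Cebpd at 649 ± 9.19. Mitf (496 ± 33.2), Klf4 (444 ± 10.2) and Pparg (269 ± 16.7) were lower, and Egr2 was the lowest at 37.9 ± 1.63. Between groups, Pparg had the widest span, with the highest group mean 8.48 times the lowest, followed by Klf4 at 6.26, Egr2 at 5.14 and Cebpd at 4.06. Maf (1.59), Mitf (1.62) and Spi1 (1.68) had the narrowest.

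**Figure D1:**
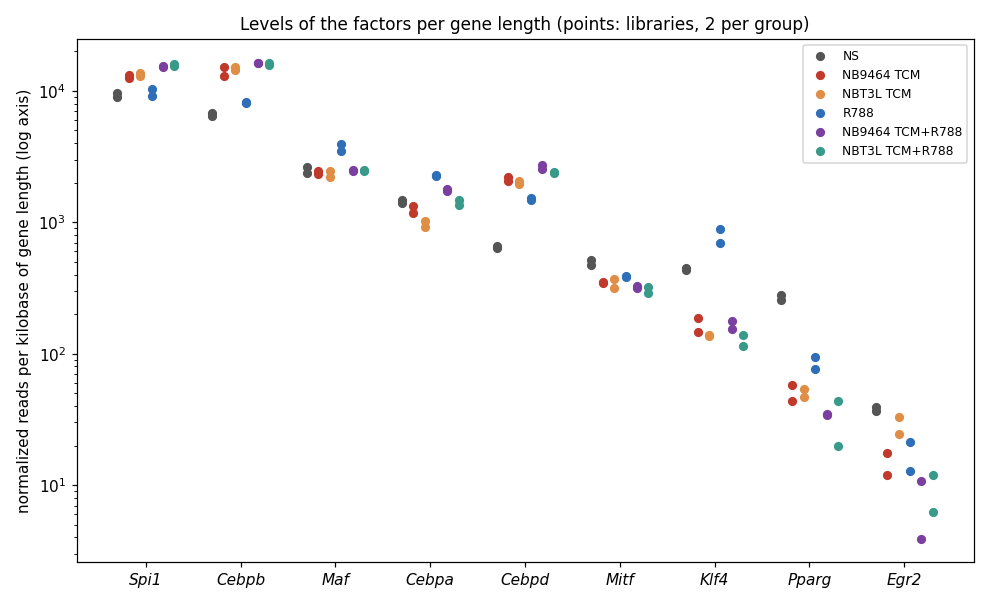
Level of each factor in normalized reads per kilobase of gene length (log axis), with 1 point per library and 6 groups of 2 libraries. Spi1 and Cebpb sit highest in every group, and Egr2, at 37.9 per kilobase in NS, sits lowest.

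The first question was what each TCM did to the factors. NB9464 TCM called 7 of the 9 at an adjusted p under 0.05 by the Wald test of DESeq2, where 34.1% of all genes were called. Of the 9, 3 were higher and 4 lower, against 17.2% and 16.9% of all genes. NBT3L TCM also called 7, against 35.3% of all genes, with 3 higher and 4 lower (18.0% and 17.3% of all genes). Spi1, Cebpb and Cebpd rose in both media, and Mitf, Pparg and Klf4 fell in both. Egr2 was called in NB9464 TCM, and Cebpa in NBT3L TCM. The median change over the 9 was -0.20 and -0.40 on the log2 scale, against 0.02 and 0.00 over all genes. Both comparisons share the NS libraries, so the media are set side by side and not counted as separate evidence. The summed level of 10 neutrophil and granulocyte precursor markers was 7111 to 7601 normalized reads in NS, 9312 to 9453 in NB9464 TCM, with Mpo and Ly6g at 0, and 11035 to 11387 in NBT3L TCM, with Elane at 0. That of 6 fibroblast markers, none at 0, was 1308 to 1669 in NS, 1581 to 1733 in NB9464 TCM and 1938 to 2166 in NBT3L TCM. Over the 12 libraries, the highest value of a single gene was 8055 in the granulocyte list and 1588 in the fibroblast list. The part of both lists in these results was not tested.

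Spi1, the lineage's central factor, was at 24357 and 26045 normalized reads in NS, 33589 and 35585 in NB9464 TCM and 36775 and 34835 in NBT3L TCM. All 4 TCM libraries lay above both NS libraries. The log2 fold change was 0.46 ± 0.06 with NB9464 TCM (SE; adjusted p = 3e-12), and with NBT3L TCM it was 0.51 ± 0.06 (adjusted p = 6.8e-15).

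The C/EBP genes did not move as a family. Cebpa was at 3905 and 3725 normalized reads in NS, 3107 and 3515 in NB9464 TCM and 2720 and 2431 in NBT3L TCM. Every TCM library was below both NS libraries, and the NBT3L libraries were below the NB9464 libraries. Cebpa fell by 0.57 on the log2 scale in NBT3L TCM (SE 0.09, adjusted p = 2.3e-09), whereas its change of -0.20 ± 0.09 in NB9464 TCM missed the threshold (adjusted p = 0.06, 95% interval -0.38 to -0.03). This smaller fall was called with TMM scaling (adjusted p = 0.049), among genes with a mean of 50 counts or more (adjusted p = 0.0487) and without NB9464 TCM library 4 (-0.30, adjusted p = 0.020).

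Cebpb, the inflammatory member, was at 9737 and 10167 normalized reads in NS, 19537 and 22950 in NB9464 TCM and 21816 and 22817 in NBT3L TCM. Cebpd was at 2406 and 2455 in NS, 7682 and 8301 in NB9464 TCM and 7368 and 7707 in NBT3L TCM. Neither gene overlapped between TCM and NS, and in both media Cebpd had the larger log2 fold change. Cebpb rose by 1.09 ± 0.07 (adjusted p = 1.9e-55) and 1.17 ± 0.07 (adjusted p = 8.9e-63) on the log2 scale. Cebpd rose by 1.72 ± 0.07 (adjusted p = 8.8e-138) and 1.63 ± 0.07 (adjusted p = 1.1e-123), a fold of 3.29 and 3.10.

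The balance within the family moved accordingly. Per kilobase, Cebpb stood at 4.58 ± 0.29 times the level of Cebpa in NS (SD, n = 2), 11.2 ± 0.30 times in NB9464 TCM and 15.3 ± 1.69 times in NBT3L TCM. Cebpd was at 0.449 ± 0.021 of the level of Cebpa in NS and at 1.70 ± 0.055 and 2.07 ± 0.23 times it in the media. Cebpb stayed above Cebpd in each of the 12 libraries, with a ratio of 10.2 in NS and of 6.61 and 7.37 in the media.

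Maf, a factor of resident and IL-10 producing macrophages, was at 21581 and 19611 normalized reads in NS, 19295 and 20087 in NB9464 TCM and 18355 and 20388 in NBT3L TCM. The groups overlapped. Its log2 fold change was -0.06 (95% interval -0.20 to 0.07, adjusted p = 0.54) and -0.09 (95% interval -0.22 to 0.05, adjusted p = 0.36).

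Mitf, a regulator of lysosomal and osteoclast genes, was at 3220 and 2929 normalized reads in NS, 2188 and 2149 in NB9464 TCM and 1953 and 2288 in NBT3L TCM. Each TCM library was below both NS libraries. It fell by 0.50 (SE 0.10, adjusted p = 9.3e-06) and 0.54 (SE 0.11, adjusted p = 2.3e-06) on the log2 scale.

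Pparg, the nuclear receptor of fatty acid uptake and storage, was at 830 and 760 normalized reads in NS, 171 and 128 in NB9464 TCM and 160 and 137 in NBT3L TCM. Klf4, a zinc finger factor of monocyte differentiation, was at 1333 and 1377 in NS, 568 and 445 in NB9464 TCM and 427 and 418 in NBT3L TCM. The TCM libraries lay far below NS for both genes and overlapped between the media only for Pparg. Pparg fell by 2.41 (SE 0.32, adjusted p = 5.2e-13) and 2.42 (SE 0.32, adjusted p = 5.8e-13) on the log2 scale, and Klf4 by 1.42 (SE 0.17, adjusted p = 4.6e-15) and 1.68 (SE 0.18, adjusted p = 2.9e-20).

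Egr2, an early growth response factor that is induced by IL-4, was the least abundant of the 9, with 125 and 133 normalized reads in NS, 59.3 and 40.9 in NB9464 TCM and 113 and 83.3 in NBT3L TCM. Both media libraries lay below NS, and those of NB9464 TCM lay lowest. The change was -1.36 ± 0.56 in NB9464 TCM (adjusted p = 0.046) and -0.40 in NBT3L TCM (95% interval -1.49 to 0.70, adjusted p = 0.66). The call in NB9464 TCM was not made by the quasi-likelihood test of edgeR (adjusted p = 0.061) or without any 1 of the 4 libraries.

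**Figure D2:**
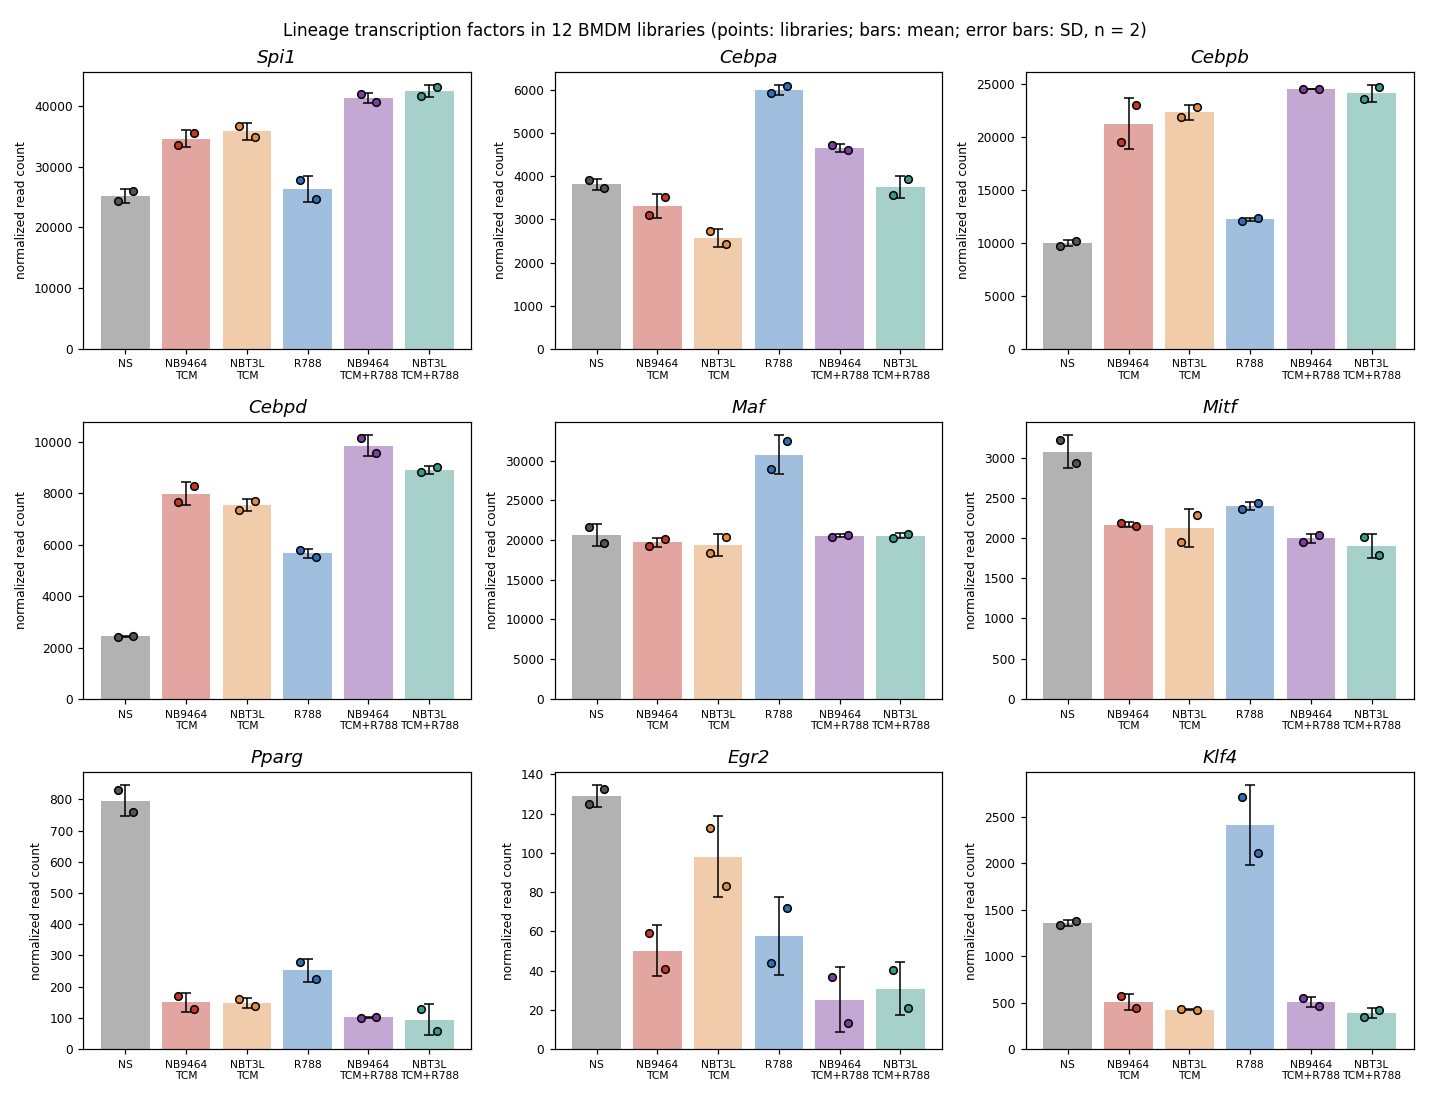
Normalized read count of each factor in the 12 BMDM libraries, with points for libraries, bars for group means and error bars for the SD (n = 2). Cebpb and Cebpd are higher in every library with TCM than in NS, Pparg and Klf4 are lower, and Maf is highest with R788 alone.

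The media were also compared with each other. Of the 9 factors, 1 was called between NB9464 TCM and NBT3L TCM, where 9.40% of all genes were. Cebpa was higher in NB9464 TCM by 0.36 ± 0.09 on the log2 scale (adjusted p = 0.00095), and with R788 in both media by 0.32 ± 0.09 (adjusted p = 0.0062), again the 1 factor called, against 9.62% of genes. Each call was lost when either of 2 libraries was left out: without NB9464 TCM library 4 or NBT3L TCM library 6 in the first comparison (adjusted p = 0.10 and 0.12), and without library 9 or 11 in the second (adjusted p = 0.11 and 0.21). For Spi1, Cebpb, Cebpd, Maf and Mitf the 95% intervals of the difference without R788 lay between -0.21 and 0.24. For Pparg (-0.63 to 0.66), Klf4 (-0.09 to 0.62) and Egr2 (-2.08 to 0.15) they were wider.

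Genes known to be bound by these factors were counted from lists chosen for each factor. The counts in these lists, and in those of relatives, receptors and other lineage factors below, stand against the shares of all genes called. These shares were 17.2% higher and 16.9% lower in NB9464 TCM, and 18.0% and 17.3% in NBT3L TCM. Of 8 C/EBP targets, all 8 were called higher in both media, with a median log2 fold change of 6.15 and 5.70. Csf3, the granulocyte colony-stimulating factor, was at 1.88 and 5.69 normalized reads in NS, 4558 and 4965 in NB9464 TCM and 7308 and 6902 in NBT3L TCM. Il6, the cytokine of the acute phase, was at 0 and 3.79 in NS, 259 and 327 in NB9464 TCM and 710 and 671 in NBT3L TCM.

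Of 9 PU.1 targets, 5 rose and 2 fell in NB9464 TCM (median 0.40) and 6 rose and 1 fell in NBT3L TCM (median 0.38). Cybb, the catalytic subunit of the phagocyte oxidase, rose by 1.86 ± 0.05 and 1.97 ± 0.05, and Csf3r, the receptor of G-CSF, by 1.61 ± 0.10 and 2.09 ± 0.10 on the log2 scale. Tlr4, the endotoxin receptor, fell by 0.71 and 0.94.

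The 8 MAF targets mostly fell while Maf itself was not called: 6 fell and 2 rose in NB9464 TCM, and 6 fell and 1 rose in NBT3L TCM, with medians of -2.04 and -2.21. Mrc1, the mannose receptor, fell from 28261 and 26069 normalized reads in NS to 2812 and 2517 in NB9464 TCM and 4716 and 4424 in NBT3L TCM. Il10 went the other way, by 2.07 ± 0.19 and 1.45 ± 0.19 on the log2 scale.

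Of 8 MITF targets, 4 rose in each medium while 2 and 3 fell (medians 0.24 and 0.30). Acp5, the tartrate-resistant phosphatase, rose by 2.51 ± 0.12 and 2.47 ± 0.12, and Gpnmb, a lysosomal glycoprotein, fell by 0.84 and 0.59 on the log2 scale. Of 9 PPARγ targets, 1 rose and 4 fell in each medium, with medians of -0.15 and -0.42. Cd36, the fatty acid and oxidized lipid receptor, fell by 1.05 in NB9464 TCM and was at -0.09 in NBT3L TCM, and Lpl, lipoprotein lipase, fell by 1.31 in NBT3L TCM.

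Of the 9 genes of alternative activation, 7 passed the count filter. In NB9464 TCM 2 rose and 2 fell, and in NBT3L TCM 1 rose and 2 fell (medians -1.02 and -1.86, the latter -0.71 when Ccl24, at 0 in NBT3L TCM, is set to a floor of 3 counts over the group). Arg1, arginase, rose by 2.01 ± 0.22 and 2.94 ± 0.22 on the log2 scale, and Clec10a, a galactose lectin, fell by 2.62 and 1.86. The medians of all these lists stand against 0.02 and 0.00 over all genes.

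Relatives of the 9 within their families were counted too, against the same shares of all genes called higher and lower. Among 7 ETS relatives of Spi1, 2 rose and 3 fell in NB9464 TCM, and 2 rose and 1 fell in NBT3L TCM (medians -0.01 and 0.40). Spic, the PU.1 relative of red pulp macrophages, was at 32.9 and 34.1 normalized reads in NS, 563 and 589 in NB9464 TCM and 818 and 753 in NBT3L TCM.

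Of the 2 C/EBP relatives that passed the filter, Cebpe, of late granulocytes, fell by 0.90 in NB9464 TCM and Cebpg by 0.46 in NBT3L TCM (list medians -0.43 and -0.61). Among 3 MiT relatives of Mitf, Tfec fell by 0.38 in NB9464 TCM, and Tfeb, a regulator of lysosome genes, fell by 0.54 in NBT3L TCM, where Tfe3 rose by 0.24 (medians -0.23 and 0.13). Of 4 nuclear receptors tested, 1 and 2 rose and none fell (medians 0.15 and 0.46), and Ppard rose by 0.96 ± 0.10 and 1.18 ± 0.10. Of 4 EGR genes and their corepressors, 2 rose and none fell in each medium (medians 0.09 and 0.29), with Egr1 up by 0.99 ± 0.35 and 1.01 ± 0.35. Among 7 KLF relatives 2 rose and 2 fell, then 1 rose and 3 fell (medians 0.10 and -0.17), with Klf2 down by 0.82 and 0.70.

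Receptors upstream of the factors were divided. Of 11, 4 rose and 5 fell in NB9464 TCM and 5 rose and 5 fell in NBT3L TCM (medians -0.12 and 0.10). Il4ra, the IL-4 receptor chain, rose by 0.84 ± 0.06 and 1.16 ± 0.06, and Il6st, the gp130 chain of the IL-6 receptor, fell by 1.06 and 1.08 on the log2 scale. Of 11 other lineage factors tested, 3 rose and 3 fell in NB9464 TCM, and 3 rose and 4 fell in NBT3L TCM (medians 0.15 and 0.10). Id3, an inhibitor of E proteins, fell by 1.77 and 0.86.

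The second question was what R788 did in the absence of TCM. It called 7 of the 9 factors, where 26.6% of all genes were called, with 5 higher and 2 lower against 11.6% and 15.0% of all genes. The median change over the 9 was 0.30 on the log2 scale, against 0.00 over all genes. Cebpa, Cebpb, Cebpd, Maf and Klf4 rose, and Mitf and Pparg fell. In the same libraries the summed level of 6 fibroblast markers was 1308 and 1669 normalized reads in NS and 2649 to 3058 with R788, with none of the 6 at 0, and its part in these results was not tested. In this bulk RNA a change in the number of cells of a type cannot be told apart from a change in RNA per cell.

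Cebpd, at 2406 and 2455 normalized reads in NS, was at 5784 and 5542 with R788. Cebpa was at 5930 and 6086, above both NS libraries and the highest of the 6 groups. Cebpb was at 12095 and 12328. All 3 C/EBP genes thus lay above NS in both R788 libraries. For this and the other separations of libraries described here, the share of all genes with the same order was not counted. Cebpd rose by 1.22 ± 0.07 (adjusted p = 1.2e-68), Cebpa by 0.66 ± 0.09 (adjusted p = 2.3e-12) and Cebpb by 0.30 ± 0.07 (adjusted p = 0.00015) on the log2 scale. Without library 8 the changes were 1.25, 0.64 and 0.28, and all 3 remained called.

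Maf was at 28988 and 32477 normalized reads with R788, the highest group and separate from all others. Klf4 was at 2717 and 2112, likewise the highest, although its pair of libraries was spread. Maf rose by 0.58 ± 0.07 (adjusted p = 2.1e-15) and Klf4 by 0.83 ± 0.17 (adjusted p = 9e-06) on the log2 scale. Without library 8 they rose by 0.49 (adjusted p = 6.9e-12) and 1.003 (adjusted p = 1.8e-06).

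Pparg, at 830 and 760 normalized reads in NS, was at 278 and 226 with R788, and Mitf, at 3220 and 2929, was at 2367 and 2435. Neither gene overlapped with NS. Pparg fell by 1.66 (SE 0.31, adjusted p = 1.6e-06) and Mitf by 0.36 (SE 0.10, adjusted p = 0.0034) on the log2 scale. Without library 8 they fell by 1.52 (adjusted p = 0.00038) and 0.38 (adjusted p = 0.011), and the call of Mitf was lost without NS library 1 (adjusted p = 0.099).

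Spi1 was at 27791 and 24743 normalized reads with R788, overlapping NS, with a change of 0.06 (95% interval -0.06 to 0.18, adjusted p = 0.54). Without library 8 it was called at 0.14 (adjusted p = 0.046). Egr2 was at 43.6 and 71.9, below both NS libraries, and its change of -1.16 was not called (95% interval -2.26 to -0.06, adjusted p = 0.11). Without library 8 it was -1.56 (adjusted p = 0.070).

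With R788 alone the lists stand against 11.6% of all genes called higher and 15.0% lower. Among the relatives and targets, Egr1 was at 148 and 133 normalized reads in NS and at 25.4 and 9.58 with R788. Of the 4 EGR genes and corepressors 3 fell (list median -1.71). All 4 nuclear receptors tested rose (median 0.56), with Rxra, the dimer partner of Pparγ, up by 0.89 ± 0.09 on the log2 scale. Of the MiT relatives, Tfeb rose by 0.63 ± 0.10 and Tfec by 0.41 ± 0.11 while Mitf fell (median 0.41). Of the ETS relatives 1 rose and 3 fell (median 0.07), of the C/EBP relatives Cebpg rose by 0.37 ± 0.09 (median -0.17), and of the KLF relatives 2 rose and 2 fell (median 0.27).

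The PPARγ targets fell more often than they rose, with 5 lower and 2 higher of 9 (median -0.70), and Lpl went from 148325 and 136458 normalized reads to 20814 and 21553. Of the 8 C/EBP targets 1 rose and 4 fell (median -0.71, or -0.64 with Il6, at 0 with R788, set to the floor), whereas Cebpa, Cebpb and Cebpd rose, and Arg1 and Nos2, the inducible nitric oxide synthase, fell by 2.62 and 1.87 on the log2 scale. Of the 9 PU.1 targets 3 rose and 2 fell (median 0.02), and Fcgr1, the high-affinity IgG receptor, went from 13785 and 13973 to 3045 and 2874 normalized reads. The MAF targets were 2 higher and 2 lower (median 0.03), and the MITF targets 1 higher and 3 lower (median -0.45). Of the genes of alternative activation 1 rose and 3 fell (median -0.11). Upstream receptors were 5 higher and 1 lower (median 0.20), with Csf3r up by 1.16 ± 0.10, and other lineage factors 2 higher and 2 lower (median 0.10).

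The third question was whether R788 acted in the same way in TCM. In NB9464 TCM it called 4 of the 9 factors, against 14.5% of all genes, and all 4 were higher, against 5.79%. In NBT3L TCM it called 4, against 12.6%, with 3 higher and 1 lower against 5.33% and 7.24%. Spi1, Cebpa and Cebpd were called higher in both media. The median change over the 9 was 0.06 and 0.08 on the log2 scale, against 0.00 over all genes in each. The summed fibroblast markers were 1581 to 1733 normalized reads in NB9464 TCM and 2252 to 2479 with R788 added, and 1938 to 2166 and 3501 to 3550 in NBT3L TCM. The summed granulocyte markers, at the levels given above in the media alone, were 7986 to 8818 normalized reads with R788 added to NB9464 TCM and 8918 to 9156 with R788 added to NBT3L TCM. The part of both lists in these results was not tested.

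Cebpa was at 4729 and 4601 normalized reads in NB9464 TCM + R788 and 3570 and 3928 in NBT3L TCM + R788, above the matching TCM libraries without R788 in each medium. It rose by 0.49 ± 0.09 (adjusted p = 6.6e-07) and 0.54 ± 0.09 (adjusted p = 5.9e-08) on the log2 scale. Spi1 was at 41915 and 40712, and at 41711 and 43152, which were its highest levels in the 12 libraries. It rose by 0.26 ± 0.06 (adjusted p = 0.00054) and 0.25 ± 0.06 (adjusted p = 0.0012). The second of these was lost without NBT3L TCM library 6 (adjusted p = 0.087) or library 12 (adjusted p = 0.065).

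Cebpd was at 10146 and 9575 normalized reads in NB9464 TCM + R788 and 8817 and 9037 in NBT3L TCM + R788, again its highest levels. It rose by 0.30 ± 0.07 (adjusted p = 7.6e-05) and 0.24 ± 0.07 (adjusted p = 0.0028), the latter lost without library 5 (adjusted p = 0.11) or 12 (adjusted p = 0.096). Cebpb was at 24496 and 24476, and at 23545 and 24649. Its rise of 0.20 ± 0.07 in NB9464 TCM (adjusted p = 0.019) was not called by edgeR (adjusted p = 0.063) or without library 3, 9 or 10. Its change of 0.11 ± 0.07 in NBT3L TCM was not called (adjusted p = 0.32), but was when only the groups compared were fitted (adjusted p = 0.0018).

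The remaining factors moved little or were scarce. Maf was at 20386 and 20662, and at 20299 and 20737 normalized reads, with changes of 0.06 (95% interval -0.08 to 0.20) and 0.08 (-0.05 to 0.22). Mitf was at 1955 and 2039, and at 2008 and 1796, with changes of -0.12 (-0.33 to 0.09) and -0.16 (-0.37 to 0.05). Klf4, which R788 alone had raised, was at 545 and 468, and at 349 and 423, overlapping the media without R788, with changes of 0.00 (-0.35 to 0.35) and -0.13 (-0.49 to 0.23).

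Pparg was at 100 and 102 normalized reads in NB9464 TCM + R788 and 129 and 58.3 in NBT3L TCM + R788, the lowest group means of the gene, and the changes of -0.56 and -0.66 were not called (adjusted p = 0.27 and 0.19). Without library 11 the change in NBT3L TCM was -1.35 and was called (adjusted p = 0.0066). Egr2 was at 36.8 and 13.3, and at 40.3 and 21.1. It fell by 1.68 in NBT3L TCM (SE 0.58, adjusted p = 0.030), a call not made by edgeR (adjusted p = 0.071) and lost without library 5, 6 or 12, and its change of -0.99 ± 0.60 in NB9464 TCM was not called (adjusted p = 0.28).

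**Figure D3:**
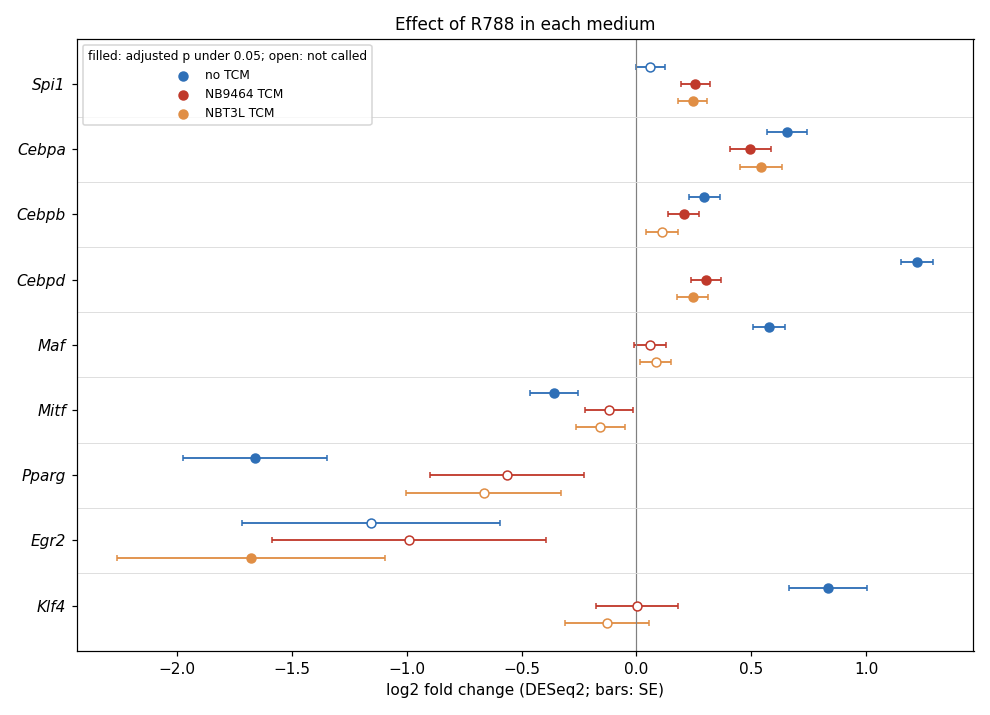
Effect of R788 on each factor in the absence of TCM and with each medium, as log2 fold change with its SE, filled where called at an adjusted p under 0.05. Cebpd, Maf and Klf4 sit well to the right without TCM, at 1.22, 0.58 and 0.83, and near 0 to 0.30 in the media.

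The difference between these effects was tested directly. For 3 of the 9 factors R788 acted differently in NB9464 TCM than without TCM, where 12.5% of all genes did, and for the same 3 it did so in NBT3L TCM, where 10.1% did. They were Cebpd, Maf and Klf4. The R788 effect on Cebpd was smaller in the media by 0.92 and 0.98, with differences of -0.92 ± 0.10 (adjusted p = 1.2e-19) and -0.98 ± 0.10 (adjusted p = 3.5e-22) on the log2 scale. For Maf the differences were -0.52 ± 0.10 (adjusted p = 4e-06) and -0.49 ± 0.10 (adjusted p = 1.5e-05). For Klf4 they were -0.83 ± 0.25 (adjusted p = 0.0076) and -0.96 ± 0.25 (adjusted p = 0.0019).

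Without library 8 all 3 differences stood in both media, at -0.95 and -1.01 for Cebpd, -0.43 and -0.41 for Maf, and -1.002 and -1.13 for Klf4. The Klf4 difference in NB9464 TCM was lost without library 3 (adjusted p = 0.10), library 7 (adjusted p = 0.068) or library 10 (adjusted p = 0.064). The Pparg differences of 1.10 ± 0.46 and 0.99 ± 0.46 were not called (adjusted p = 0.088 and 0.15), although the first was when only the groups compared were fitted (adjusted p = 0.038) and the second without library 12 (1.46, adjusted p = 0.015). The Spi1 differences of 0.20 ± 0.09 and 0.19 ± 0.09 were not called (adjusted p = 0.12 and 0.17), and among the alternatives run they were called only without R788 library 7 (0.28 and 0.27, adjusted p = 0.0011 and 0.0023). For Cebpa the differences were -0.16 (95% interval -0.41 to 0.08) and -0.11 (-0.36 to 0.13), and for Mitf 0.24 (-0.05 to 0.53) and 0.20 (-0.09 to 0.49). Between the media, the R788 effect differed for 0 of the 9 by DESeq2 and 0 by edgeR, against 0.706% and 0.129% of all genes, and for 0 at an unadjusted p under 0.05 by DESeq2.

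The same data were read the other way, as the response to TCM in the presence of R788. The groups given both a medium and R788 were compared with those given R788 alone, a set of libraries that shares none with the TCM and NS libraries above. All 12 libraries entered 1 fit that shares the estimate of spread, however. Both comparisons use the same R788 libraries, so they are not counted as separate evidence. Of the 9 factors 8 were called in each, against 40.4% and 41.4% of all genes. In each, 3 were higher, against 20.7% and 21.5% of all genes, and 5 lower, against 19.6% and 19.9%. The median change over the 9 was -0.37 and -0.58 on the log2 scale, against 0.00 over all genes. Spi1, Cebpb and Cebpd were again higher, and Cebpa, Mitf, Pparg and Klf4 lower, as without R788 with the exception that Cebpa in NB9464 TCM had missed the threshold there. Maf joined the factors that were lower, and Egr2 was not called.

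Spi1 rose by 0.65 ± 0.06 and 0.69 ± 0.06 and Cebpb by 1.004 ± 0.07 and 0.98 ± 0.07 on the log2 scale. Cebpd, already raised by R788 alone, rose by 0.80 ± 0.07 and 0.66 ± 0.07 from there. Klf4 fell by 2.25 (SE 0.17) and 2.64 (SE 0.18), Pparg by 1.31 and 1.43 (SE 0.33 each) and Cebpa by 0.37 and 0.68 (SE 0.09 each). Maf fell by 0.58 in both (SE 0.07, adjusted p = 4.9e-16 and 4.3e-16) and ended within the range of the NS libraries. Without library 8 all of these were still called.

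Mitf fell by 0.27 (SE 0.11, adjusted p = 0.031) and 0.34 (SE 0.11, adjusted p = 0.0045), and the first was lost without library 8 (adjusted p = 0.11) and without library 7, 9 or 10, as well as when only the groups compared were fitted (adjusted p = 0.13), the second without library 12 (adjusted p = 0.13). Egr2 changed by -1.20 (95% interval -2.36 to -0.04) and -0.92 (-2.06 to 0.23), neither called, although the first was called without library 9 (-2.12, adjusted p = 0.019). All 8 C/EBP targets were again called higher in both media, against 20.7% and 21.5% of all genes, with medians of 6.92 and 6.32. The reference group, R788 alone, includes library 8. Il6 had no reads in that group, so its fold change has no fixed size.

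**Figure D4:**
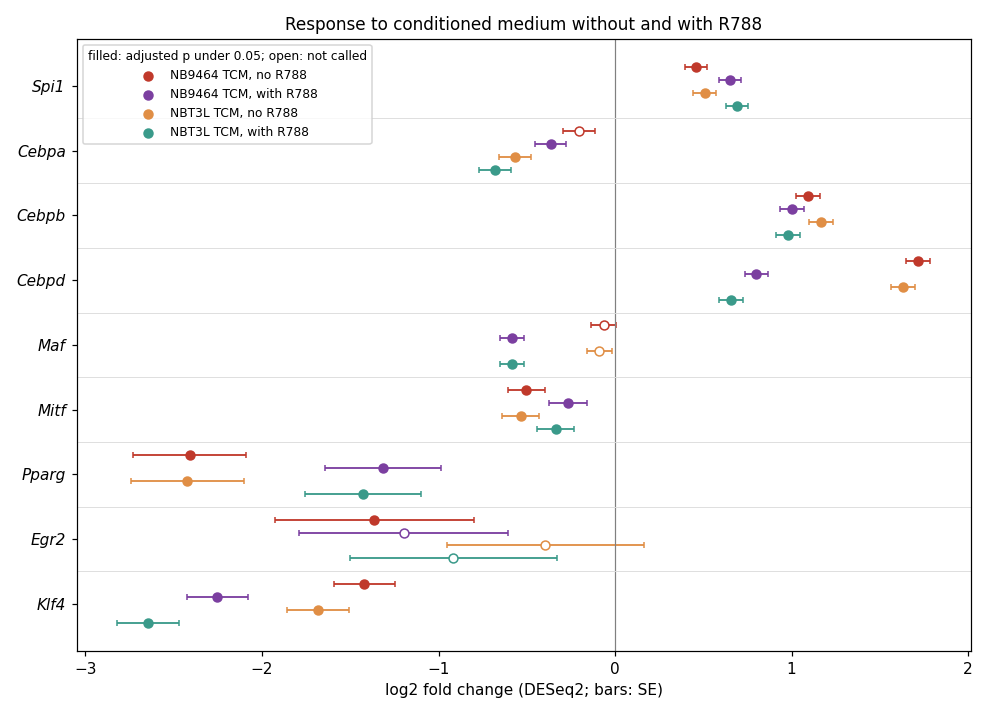
Response of each factor to TCM without R788 (against NS) and with R788 (against R788 alone), as log2 fold change with its SE, filled where called at an adjusted p under 0.05. Maf is near 0 without R788 and at -0.58 with it, and Cebpd goes from 1.72 and 1.63 to 0.80 and 0.66.

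Ordered by group mean, the 9 factors fell into several orders. Spi1 and Cebpb were highest in both groups with TCM and R788, then in both TCM groups, then in R788 and NS, and neighbours within each of these pairs overlapped except for Cebpb between R788 and NS. Cebpd ran NB9464 TCM + R788, NBT3L TCM + R788, NB9464 TCM, NBT3L TCM, R788 and NS, and only the pair of TCM groups without R788 overlapped. Cebpa ran R788, NB9464 TCM + R788, NS, NBT3L TCM + R788, NB9464 TCM and NBT3L TCM, with an overlap only between NS and NBT3L TCM + R788.

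Mitf and Pparg were highest in NS, then in R788, then in the groups with TCM. The 4 TCM groups of Mitf overlapped from neighbour to neighbour. Those of Pparg overlapped within each pair with or without R788, and NBT3L TCM + R788 also overlapped NB9464 TCM. Klf4 and Maf were highest in R788 and second in NS by group mean, but for Maf the NS libraries overlapped those of all 4 TCM groups. Egr2 was highest in NS, then in NBT3L TCM and R788, and the libraries of R788 and NB9464 TCM overlapped, as did those of the groups with both agents.

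For the 6 factors whose group means spanned at least 1 on the log2 scale, the genes nearest in pattern were found among 10705 genes. Likeness was the root mean square difference of the 6 group means of log2(normalized count + 1), each gene centred on its own mean. Cebpa had the closest neighbour of all, Tfeb, at 0.0216, followed by Calcoco1 at 0.0928 and Npl at 0.0966. Tfeb was at 1459 and 1638 normalized reads in NS, 1279 and 1370 in NB9464 TCM, 1052 and 1071 in NBT3L TCM, 2368 and 2438 in R788, 1964 and 1894 when R788 was added to NB9464 TCM, and 1470 and 1515 when it was added to NBT3L TCM. Its group means stood in the same order as those of Cebpa, and in both genes the NS and NBT3L TCM + R788 libraries overlapped.

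Cebpb was nearest to Pafah2 (0.0346), Gng12 (0.0446) and Cyb5a (0.0614), and Cebpd to 0610038B21Rik (0.0755), Chst1 (0.0874) and Tmem268 (0.114). Egr2 was nearest to Stat2 (0.153), Ddx58 (0.166) and Ifi47 (0.173), 3 genes known for their place in the interferon response. Stat2 was at 10317 and 10141 normalized reads in NS, 5465 and 5161 in NB9464 TCM, 7456 and 7625 in NBT3L TCM, 4828 and 4681 in R788, 2105 and 2086 when R788 was added to NB9464 TCM, and 2796 and 2698 when it was added to NBT3L TCM, and no group overlapped another. Klf4 was nearest to Acot1 (0.162), Itgb5 (0.190) and Ier5l (0.198), and Pparg to Pkd1l2 (0.162), Mastl (0.189) and Slc24a3 (0.242). The points are 6 groups that share libraries between all genes, and likeness is a description with no test.

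**Figure D5:**
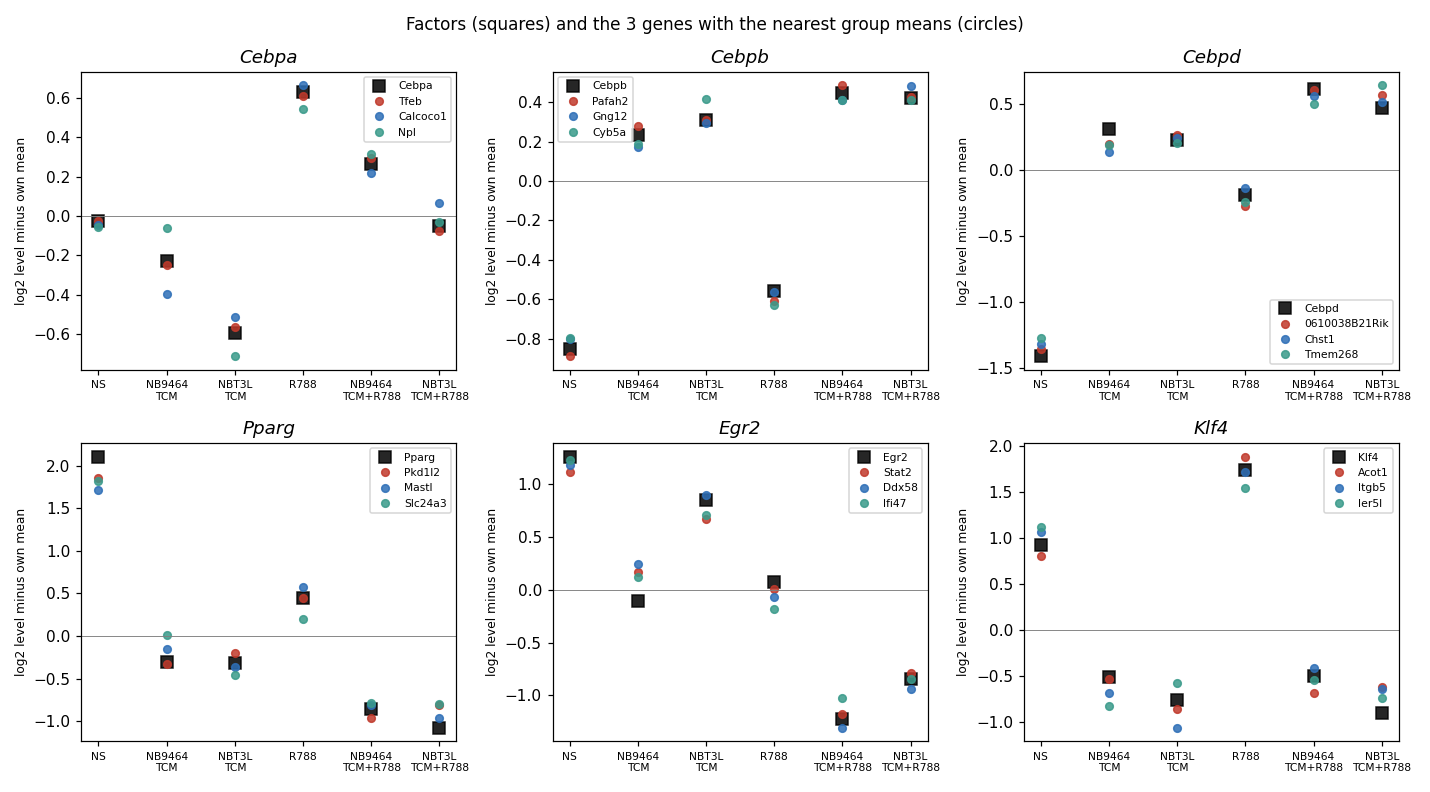
Group means of 6 factors (squares) and of the 3 genes nearest to each (circles), as log2(normalized count + 1) minus the gene's own mean over the 6 groups. Tfeb follows Cebpa at a root mean square difference of 0.0216, and Stat2 follows Egr2 at 0.153.

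By the GENCODE M21 annotation (mm10), exons of 4 of the 9 genes overlap a gene on the other strand, and the strand setting of the counts was not given in the sources used here. Cebpb (chr2:167688915-167690418, plus strand) overlaps Tmem189, whose group means lay between 6235 and 8547 normalized reads and were lowest with R788 alone. Cebpd (chr16:15887286-15891031, plus strand) overlaps Spidr, with group means of 1725 to 2038. Cebpa (chr7:35119293-35121928, plus strand) overlaps Gm45091, at no more than 19.7 in any group, and Maf (chr8:115682942-115707794, minus strand) overlaps Gm15655, which had no reads. None of these partners differed between groups by as many reads as Cebpb, Cebpd, Cebpa and Maf did. Spi1 lies at chr2:91082390-91115756, Mitf at chr6:97807052-98021349, Pparg at chr6:115360951-115490399 and Egr2 at chr10:67535475-67542188, all on the plus strand, and Klf4 at chr4:55527143-55532466 on the minus strand.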

How the data were processed

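Poly(A)-selected RNA of BMDMs was sequenced, and the authors deposited 1 table of whole-number read counts per Ensembl gene. Per the submitters' processing notes the tools were STAR 2.6.1d, Salmon 1.4.0, SAMtools 1.9, Picard 2.26 and MultiQC 1.11, with the build mm10. Which program made the counts, its use of strand and its treatment of reads with several positions are not given in the sources used here. Even values made up 65.2% to 67.9% of counts between 1 and 40 in each library, a pattern that counting the mates of a pair singly would give, and counts divided by 2 were tried. The labels give paired reads and 2 libraries per group, the methods single reads and triplicates.

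Groups came from the labels. Symbols came from a separate reference of gene names and were found for 54079 of 54232 gene identifiers. GENCODE M21 gave positions and held 54165 of them. Genes that reached 10 counts in 2 or more libraries, 16281 in all, were fitted with DESeq2 1.42.0 (R 4.3.3) as 1 model of 6 groups over 12 libraries. Median-of-ratios size factors and Wald tests were used, with a threshold of 0.05 on the adjusted p. Benjamini-Hochberg adjustment came after the default independent filtering of DESeq2, which can leave out genes of low mean count in each comparison. Genes left out counted as not called, and shares of all genes are of the 16281. Normalized reads are counts divided by the size factor, log2 fold changes are unshrunken, and intervals are 1.96 SE to each side. DESeq2 was chosen because the study names it. Alternatives were edgeR 4.0.16 (quasi-likelihood), TMM scaling, a mean of 50 counts or more, no count filter, halved counts, only the groups compared, and each library left out. The code was tested on simulated counts.

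The 9 factors and the lists were chosen with earlier results of these data known. Named list genes are up to 2 of the largest rises and 2 of the largest falls among called genes with a mean of at least 100 normalized reads. Likeness used genes with that mean and a symbol, and factors with a span of at least 1. Ddit3, listed under 2 identifiers, was left out. The list of MAF relatives is not reported here. Tables were handled with pandas 2.3.3 and numpy 2.4.6 (Python 3.11.15).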

Additional observations from a re-analysis of the deposited data

Results flagged for a closer look

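The effect of R788 differed between cells in TCM and cells without it for 3 factors in each medium, by the test of the difference itself. In NB9464 TCM the difference in log2 fold change was -0.92 for Cebpd, -0.52 for Maf and -0.83 for Klf4. In NBT3L TCM it was -0.98 for Cebpd, -0.49 for Maf and -0.96 for Klf4. For these 3 factors both R788 libraries without TCM lay above both NS libraries. The same NS and R788 libraries entered both sets of differences, so this order adds no evidence beyond the tests.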

How the results depend on the processing

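Of 53 calls of a factor in a comparison, 42 were kept under every alternative. No paired analysis was possible because each library number belongs to 1 library only. The count of all genes called for R788 in NBT3L TCM was 3678 when only the groups compared were fitted. In the same fit 2 factors were called between the media with R788, and 271 genes for the difference of the R788 effect between the media, which was 21 by edgeR. Klf4 with R788 in NB9464 TCM, at 0.00, turned to -0.0017 with TMM scaling, -0.0005 without the count filter and at a mean of 50 counts, -0.0009 with halved counts and -0.0014 by edgeR.

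With 1 library left out, the genes called ranged from 1432 to 1802 for R788 in NB9464 TCM, 1173 to 1262 in NBT3L TCM (with 1 to 5 factors), 795 to 1065 between the media (0 to 1 factors) and 852 to 995 between them with R788 (0 to 1). They ranged from 1344 to 2974 and 1038 to 2583 for the R788 effect in NB9464 and NBT3L TCM against none, and 46 to 76 between the media. A lone library in a group was assumed to vary like the others. The sign turned within these ranges for values that were not called: Maf in NB9464 TCM (-0.1352 to 0.0035), Spi1 with R788 alone (-0.0252 to 0.1399), Klf4 with R788 in NB9464 TCM (-0.1659 to 0.1867) and NBT3L TCM (-0.2751 to 0.0012), and the differences of Cebpb (-0.2026 to 0.0293) and Egr2 (-0.7553 to 0.7077) in NB9464 TCM. The causes were not tested. With 2 libraries per group, the 2 scarcest factors, Egr2 and Pparg, had the widest intervals.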
